A study of Mus musculus with 6 samples.

Results

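The genes of glucose uptake and glycolysis were examined in leg muscle of mouse fetuses at embryonic day 18.5 (E18.5). The group holds 32 genes chosen by name for their function: glucose transporters, the enzymes from hexokinase to lactate dehydrogenase with their isoforms, and a few enzymes that branch off or run the path in reverse. The rule that chose them uses no measured value, although earlier results of these data were known when the genes and their classes were set. All 32 were found among the 56262 genes listed, and all 32 passed the filter on low counts that kept 22071 genes for testing.

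RNA-seq covered 3 wild-type (WT) and 3 *SYISL* KO samples of leg muscle. *SYISL*, a lncRNA transcribed in sense from an intron of *Synpo2*, is missing in the KO fetuses. Males and females of the same genotype were mated, so the genotype of the fetus and that of its mother cannot be told apart in these samples. The strain of the KO line, the sex of the fetuses, the litters they came from and whether a sample holds 1 fetus or several are not given in the sources used here, and p-values therefore measure only the spread between these samples.

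The depth was 82054811 to 102233181 counts per sample. No symbol for *SYISL* occurs in the annotation used here, and the genotype rests on the labels. Levels are given as CPM, that is, counts relative to the library size after scaling by TMM. Where genes are compared with each other, RPKM is used, which divides CPM by the length of a gene's merged exons in kilobases. Markers of 10 cell types were counted as fixed lists. The muscle fibre list held 10 genes, among them *Acta1*, *Ckm* and *Casq1*. It summed to 11580 to 12884 CPM in the WT samples and 26348 to 34087 CPM in the KO samples. Only *Tnnc2* of this list had low counts, with means of 0.693 (WT) and 1.35 CPM (KO). Why it had so few counts was not examined, so these values may not be its true level. It stays in the marker counts below. In bulk tissue, fewer cells of a type and less RNA per cell cannot be told apart, and this holds for each level below.

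Glycolysis splits glucose into pyruvate in the cytosol and makes ATP without oxygen. In skeletal muscle it fuels short bursts of contraction, and pyruvate is then turned into lactate or burned in mitochondria. Many of its steps are carried by several isoforms from separate genes. Of these, 1 is best known as the form of mature skeletal muscle, and the others as forms of most cells or of liver, brain or heart. Being called a muscle isoform here does not mean that a gene is silent in other cells. Here 17 steps were covered, 9 of which hold a muscle isoform (*Slc2a4*, *Hk2*, *Pfkm*, *Pfkfb1*, *Fbp2*, *Aldoa*, *Pgam2*, *Eno3* and *Ldha*) and 15 other isoforms between them, while 8 steps are represented by a single gene.

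Muscle isoforms were higher in KO muscle, and other isoforms of the same steps mostly were not. DEGs had to pass 2 thresholds, an adjusted p below 0.05 and a change of more than 1.5-fold (edgeR's quasi-likelihood test, Benjamini-Hochberg adjustment over all genes tested). Of the 32 genes, 10 were DEGs higher in KO, where 8.31% of all genes tested were, and 2 were DEGs lower in KO, where 8.39% of all genes tested were. Together these were 12 of 32, beside 16.7% of all genes tested. By adjusted p alone, 20 were higher and 9 were lower in KO, beside 21.9% and 23.1% of all genes tested. Values of WT and KO samples did not overlap for 29 of 32 genes, which was true of 55.9% of all genes tested. The median log2 fold change (KO over WT) of the 32 genes was 0.28, and that of all genes tested was -0.0041.

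The counts differed by class of isoform. Of the 9 muscle isoforms, 7 were DEGs higher in KO, all 9 passed the adjusted p in that direction, and their log2 fold changes ran from 0.30 to 1.33 with a median of 0.90. Of the 15 other isoforms, 1 was a DEG higher in KO (*Fbp1*) and 1 a DEG lower (*Aldoc*), 5 were higher and 8 lower by adjusted p alone, and the median log2 fold change was -0.15. Of the 8 genes that stand alone at their step, 2 were DEGs higher (*Tpi1* and *Gapdh*), 1 was a DEG lower (*Bpgm*), and the median was 0.36.

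**Figure D1:**
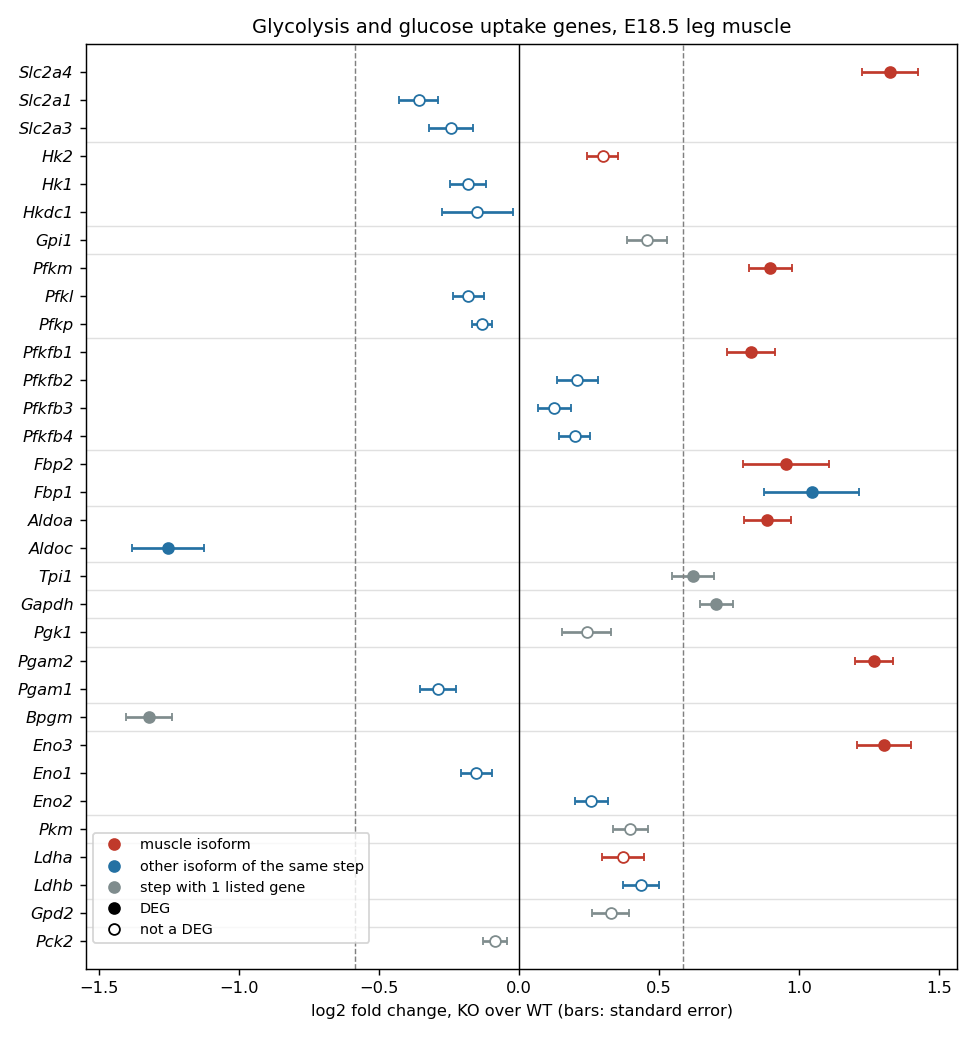
Log2 fold change of KO over WT for each of the 32 genes, in the order of the steps (3 samples per genotype; bars are the standard error of the edgeR fit; dashed lines mark a fold change of 1.5). Muscle isoforms are red, other isoforms of the same step blue and single genes grey, and filled points are DEGs; all 9 red points lie right of 0, from 0.30 for Hk2 to 1.33 for Slc2a4.

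Markers of other tissues moved between the genotypes as well. Muscle fibre markers were DEGs higher in KO in 9 of 10 cases, with a median log2 fold change of 1.32 (range 0.52 to 1.65). Of the 32 glucose genes, 1 reached that median, and 10 reached the lowest value of that range. Epidermis markers (*Krt5*, *Krt14*, *Krt10* and 6 more) were DEGs lower in KO in 9 of 9 cases, and their sum was 15853 to 23840 CPM in WT and 674 to 783 CPM in KO. WT replicate 2 had the largest epidermal sum and the smallest muscle fibre sum of the WT samples. This replicate was also the highest WT sample for 11 of 15 other isoforms and the lowest for 6 of 9 muscle isoforms. Leaving it out kept the same numbers of DEGs, 10 higher and 2 lower. WT replicates 1 and 3 still had epidermal sums of 15853 and 17754 CPM, so this leaves the tissue difference between the genotypes in place. Endothelial markers (0 of 7 DEGs by edgeR, DESeq2 and limma-voom, 6 of 7 higher at an unadjusted p under 0.05 in edgeR), fibroblast markers (0 of 6 by all 3 tools, 5 of 6 higher at such a p in edgeR) and cartilage and bone markers (1 DEG higher and 2 lower of 8) moved less by their medians. These medians were 0.17, 0.23 and -0.31. The 2 lower cartilage genes were *Col2a1* (log2 fold change -0.98) and *Matn1* (-2.24, at a mean of 1.40 CPM in WT). The part of these tissues in the glucose gene results was not tested.

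Glucose transporters split by isoform. *Slc2a4* encodes GLUT4, the transporter that insulin and contraction bring to the surface of muscle and fat cells (ENSMUSG00000018566.14, minus strand of chromosome 11 of mm10, 69942539 to 69948188). It stood at 30.4, 29.8 and 31.1 CPM in the WT samples and at 62.3, 83.2 and 83.4 CPM in the KO samples. All KO samples lay above all WT samples, and KO replicate 1 was the lowest of the KO samples. It rose 2.51-fold (log2 1.33, standard error (SE) 0.099, adjusted p = 5.64e-06), the largest rise among the 32 genes.

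*Slc2a1* encodes GLUT1, the transporter of basal uptake in most cells, red cells and epidermis included. Its levels were 73.5, 91.7 and 79.2 CPM in WT and 64.0, 63.9 and 62.8 CPM in KO. The groups did not overlap, and WT replicate 2 was the highest sample. The log2 fold change was -0.36 (adjusted p = 0.00267), which passed the p but not the fold threshold. *Slc2a3* (GLUT3, the neuronal transporter) was at 9.39 to 10.8 CPM in WT and 7.84 to 9.09 CPM in KO, with a log2 fold change of -0.24 (adjusted p = 0.0314). Per length, *Slc2a1* was the more abundant transporter in WT, at 23.2 ± 2.65 RPKM against 8.75 ± 0.184 RPKM for *Slc2a4* (SD, n = 3), and the KO means were 18.1 ± 0.186 and 21.9 ± 3.48 RPKM. The share of *Slc2a4* in the summed RPKM of the 3 transporters was 26.3% ± 2.38 in WT and 53.0% ± 4.20 in KO (SD, n = 3).

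Hexokinases trap glucose in the cell as glucose-6-phosphate. The muscle form *Hk2* was at 65.4, 73.4 and 69.0 CPM in WT and at 79.9, 88.5 and 87.3 CPM in KO. All KO samples lay above all WT samples, yet the difference was the smallest of any muscle isoform, with a log2 fold change of 0.30 (SE 0.055, adjusted p = 0.00170). *Hk1*, the form of most tissues, was at 65.0, 79.1 and 70.9 CPM in WT and 61.9, 62.9 and 64.5 CPM in KO (log2 fold change -0.18, adjusted p = 0.0425). *Hkdc1*, a scarce hexokinase-like gene, was at 1.09 to 1.22 CPM in WT and 0.955 to 1.14 CPM in KO, and its groups overlapped. *Hk1* passed the p but not the fold threshold, and *Hkdc1* passed neither (adjusted p = 0.375). *Gpi1*, which turns glucose-6-phosphate into fructose-6-phosphate, was at 540.02 to 552 CPM in WT and 670.1 to 810.3 CPM in KO, with a log2 fold change of 0.46 (adjusted p = 0.000616), and 11.5% of its exon bases lie within an exon of another gene on the opposite strand.

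Phosphofructokinase 1 makes fructose-1,6-bisphosphate and is the main point of control of the path. *Pfkm* encodes its muscle subunit (ENSMUSG00000033065.14, plus strand of chromosome 15, 98092589 to 98132451). It was at 205.7, 190.9 and 205.0 CPM in WT and at 326.6, 396.5 and 397.7 CPM in KO. The lowest KO sample exceeded the highest WT sample by more than the spread within either group, and *Pfkm* was a DEG at 1.86-fold (log2 0.90, SE 0.077, adjusted p = 1.32e-05). The liver subunit *Pfkl* was at 86.9 to 102 CPM in WT and 81.0 to 83.8 CPM in KO, and the platelet subunit *Pfkp* at 64.3 to 66.4 CPM in WT and 58.6 to 61.2 CPM in KO. Their log2 fold changes were -0.18 and -0.13 (adjusted p = 0.0242 and 0.0154), so both passed the p and neither the fold. Of the exon bases of *Pfkm*, 10.7% lie within exons of other genes.

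The PFKFB enzymes set the level of fructose-2,6-bisphosphate, the strongest activator of phosphofructokinase 1. *Pfkfb1*, the form of liver and muscle, was at 3.52, 3.17 and 3.19 CPM in WT and at 5.35, 5.99 and 6.21 CPM in KO. It was the only DEG of the 4 (1.78-fold, log2 0.83, adjusted p = 5.02e-05). *Pfkfb3*, the broadly expressed form, was the most abundant per length in both genotypes, at 3.94 ± 0.329 RPKM in WT and 4.29 ± 0.0213 RPKM in KO (SD, n = 3), and its groups overlapped. *Pfkfb2* and *Pfkfb4* had log2 fold changes of 0.21 and 0.20 (adjusted p = 0.0449 and 0.0158). Of the exon bases of *Pfkfb2*, 19.5% lie within exons of other genes.

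Fructose-1,6-bisphosphatase runs the step of phosphofructokinase 1 in reverse. Both of its genes were DEGs higher in KO, which was the only step where the other isoform was. *Fbp2*, the muscle form, was at 9.53, 6.95 and 8.35 CPM in WT and 12.4, 18.0 and 17.7 CPM in KO (log2 fold change 0.95, SE 0.15, adjusted p = 0.000805). *Fbp1*, the form of liver and kidney, was near 1 CPM or below in WT, at 1.04, 0.690 and 0.730 CPM, and at 1.88, 1.69 and 1.51 CPM in KO (log2 fold change 1.05, SE 0.17, adjusted p = 0.000882). Of 5 liver markers, 4 passed the filter. Their sums were 15.3, 1.06 and 4.53 CPM in WT and 2.70 to 6.54 CPM in KO. They held 0 DEGs and 0 genes at an unadjusted p under 0.05 by edgeR, DESeq2 and limma-voom. The part of liver or of any other tissue in the *Fbp1* result was not tested.

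Aldolase splits the 6-carbon sugar into a pair of 3-carbon sugars. *Aldoa*, the muscle form (ENSMUSG00000030695.16, minus strand of chromosome 7, 126795234 to 126800751), had the highest level per length of all 32 genes in both genotypes. Its values were 1235, 1191 and 1188 CPM in WT and 1941, 2410.3 and 2333 CPM in KO. KO replicate 1 was the lowest KO sample here too, and the fold change was 1.85 (log2 0.89, SE 0.083, adjusted p = 2.51e-05). *Aldoc*, the form of brain, went the opposite way, from 9.61, 14.3 and 11.4 CPM in WT to 5.05, 4.91 and 4.81 CPM in KO. WT replicate 2 was again the highest sample, and *Aldoc* was a DEG 2.38-fold lower in KO (log2 -1.25, SE 0.13, adjusted p = 4.39e-05). *Aldoa* made up nearly all of the step in both genotypes, with shares of 99.1% ± 0.184 in WT and 99.8% ± 0.0283 in KO (SD, n = 3).

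The next enzymes have no second isoform among the 32 genes. *Tpi1*, which interconverts the 3-carbon sugars, was at 595.9, 604 and 592 CPM in WT and at 806, 994 and 956 CPM in KO, a DEG at 1.54-fold (log2 0.62, adjusted p = 0.000148). That fold lies just above the threshold, and *Tpi1* fell under it with library size alone (log2 0.55) and without KO replicate 2 (log2 0.56). *Gapdh*, which makes NADH, was at 227, 230.3 and 249 CPM in WT and at 367, 374 and 412 CPM in KO, a DEG at 1.63-fold (log2 0.71, adjusted p = 1.13e-05). Its counts are uncertain, since 91 near-identical genes, the most counted of which is a processed pseudogene, together held 135% as many counts as *Gapdh* itself in WT and 129% in KO. *Pgk1*, which makes the first ATP, was at 300.7, 311 and 286 CPM in WT and at 301, 391.5 and 369 CPM in KO, where KO replicate 1 lay among the WT samples (log2 fold change 0.24, adjusted p = 0.0478).

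The isoforms of phosphoglycerate mutase went in opposite directions. *Pgam2*, the muscle form (ENSMUSG00000020475.3, minus strand of chromosome 11, 5801640 to 5803733), was at 244, 220.02 and 239.7 CPM in WT and at 518, 604 and 573 CPM in KO. The fold change was 2.41 (log2 1.27, SE 0.067), and its adjusted p of 6.19e-07 was the smallest of the 32. *Pgam1*, the form of most other tissues, was at 88.4, 105.03 and 93.5 CPM in WT and at 82.3, 74.5 and 77.9 CPM in KO (log2 fold change -0.29, adjusted p = 0.00525). Its groups did not overlap, and 1 near-identical pseudogene held 5.39% as many counts in WT and 4.63% in KO. The share of *Pgam2* was 85.2% ± 1.83 in WT and 94.4% ± 0.680 in KO (SD, n = 3).

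*Bpgm* makes 2,3-bisphosphoglycerate, which lowers the affinity of hemoglobin for oxygen in red blood cells. It was at 48.2, 47.3 and 42.2 CPM in WT and at 16.2, 20.1 and 18.8 CPM in KO. No KO sample came near a WT sample, and *Bpgm* was the largest fall among the 32 genes, 2.50-fold lower in KO (log2 -1.32, SE 0.082, adjusted p = 1.72e-06). Red blood cell markers (*Hba-a1*, *Alas2*, *Slc4a1* and 5 more) were DEGs lower in KO in 8 of 8 cases, and their sum was 3948 to 5191 CPM in WT and 548 to 669 CPM in KO. Their part in the *Bpgm* result was not tested.

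Enolase makes phosphoenolpyruvate. *Eno3*, its muscle form (ENSMUSG00000060600.15, plus strand of chromosome 11, 70657202 to 70662513), was at 519.9, 453 and 489 CPM in WT and at 1028, 1339.6 and 1242 CPM in KO, a DEG at 2.47-fold (log2 1.30, SE 0.097, adjusted p = 5.30e-06). *Eno1*, the form of most tissues, was at 506, 565 and 547 CPM in WT and at 501, 480.1 and 476 CPM in KO. All KO samples of *Eno1* lay below the lowest WT sample, and the log2 fold change was -0.15 (adjusted p = 0.0482). It also has 4 near-identical copies, which held 7.87% as many counts in WT and 7.95% in KO. The neuronal form *Eno2* was at 12.4 to 13.0 CPM in WT and 14.9 to 16.1 CPM in KO (log2 fold change 0.26, adjusted p = 0.00543). Nerve and glia markers summed to 91.4 to 95.5 CPM in WT and 119 to 138 CPM in KO, with 1 DEG higher and 2 lower (*Tubb3* and *Nefl*) of 9, and their part in the *Eno2* values was not tested. The share of *Eno3* was 73.1% ± 2.41 in WT and 88.0% ± 1.76 in KO per merged exon length. The merged exons of *Eno1* span 5379 bases and its principal transcript 2027 bases, and with the length of the principal transcript, an alternative added after seeing the data, the shares were 55.2% ± 3.04 and 76.9% ± 2.93 (SD, n = 3).

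**Figure D2:**
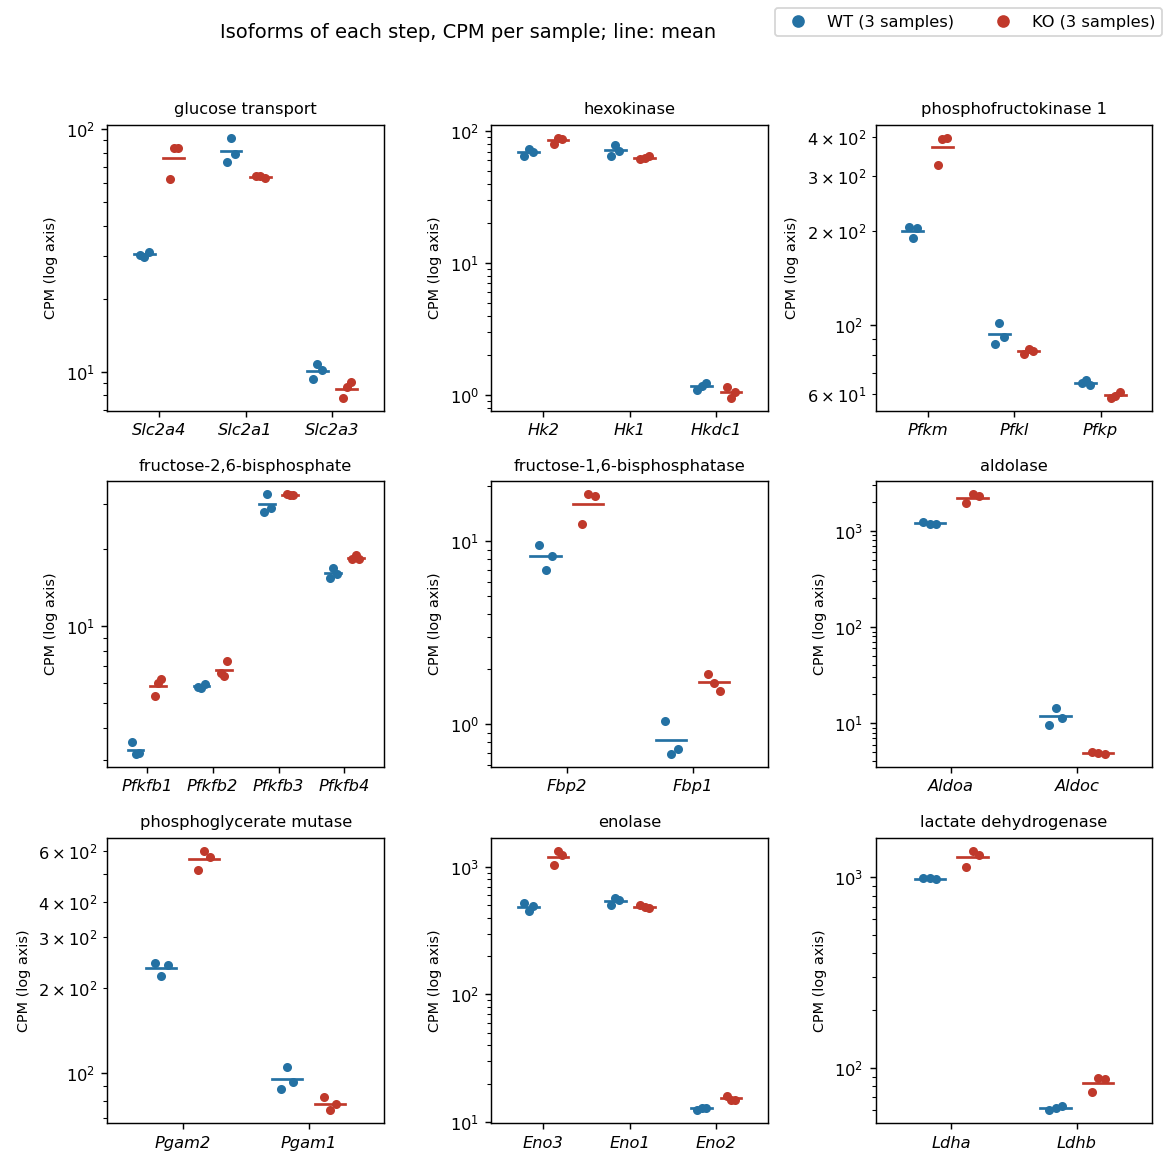
CPM on log axes for every isoform of the 9 steps that hold a muscle isoform, which is the leftmost gene of each panel; each point is 1 sample (3 WT blue, 3 KO red) and each line the mean. The red points of Slc2a4, Pfkm, Pgam2 and Eno3 lie clear above the blue points, from 30.4 to 76.3, 200.5 to 374, 235 to 565 and 487 to 1203 CPM on average, while Slc2a1, Pfkl, Pgam1 and Eno1 lie slightly lower in KO.

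Promoters of these isoform pairs are shown because the pairs moved apart while sharing a step. They come from RefSeq on GRCm38.p6, the assembly of mm10, and run from 250 bases before to 50 bases after a transcript start. In the first 4, capitals mark E-boxes (CANNTG, the site that myogenic bHLH factors bind), searched on both strands. The *Pgam2* window is chr11:5803747-5804046 on the minus strand, that of *Eno3* is chr11:70656926-70657225 on the plus strand that of *Pgam1* is chr19:41911621-41911920 on the plus strand and the first of *Eno1* is chr4:150236458-150236757 on the plus strand.
Pgam2: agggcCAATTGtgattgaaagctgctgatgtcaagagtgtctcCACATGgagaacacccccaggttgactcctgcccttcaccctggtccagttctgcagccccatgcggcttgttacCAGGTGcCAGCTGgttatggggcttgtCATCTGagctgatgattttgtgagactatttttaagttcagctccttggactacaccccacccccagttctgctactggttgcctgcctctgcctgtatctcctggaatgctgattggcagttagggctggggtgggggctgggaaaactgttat
Eno3: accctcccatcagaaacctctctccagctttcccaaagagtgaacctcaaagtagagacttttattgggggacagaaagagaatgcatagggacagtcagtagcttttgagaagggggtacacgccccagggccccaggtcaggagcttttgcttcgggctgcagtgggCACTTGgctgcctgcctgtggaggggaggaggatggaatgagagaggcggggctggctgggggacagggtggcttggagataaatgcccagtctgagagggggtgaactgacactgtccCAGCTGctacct
Pgam1: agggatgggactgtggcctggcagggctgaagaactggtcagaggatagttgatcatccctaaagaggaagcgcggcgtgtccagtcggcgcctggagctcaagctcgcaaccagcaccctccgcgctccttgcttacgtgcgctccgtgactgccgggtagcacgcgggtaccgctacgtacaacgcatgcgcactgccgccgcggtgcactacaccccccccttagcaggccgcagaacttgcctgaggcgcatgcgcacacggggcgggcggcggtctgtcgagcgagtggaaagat
Eno1: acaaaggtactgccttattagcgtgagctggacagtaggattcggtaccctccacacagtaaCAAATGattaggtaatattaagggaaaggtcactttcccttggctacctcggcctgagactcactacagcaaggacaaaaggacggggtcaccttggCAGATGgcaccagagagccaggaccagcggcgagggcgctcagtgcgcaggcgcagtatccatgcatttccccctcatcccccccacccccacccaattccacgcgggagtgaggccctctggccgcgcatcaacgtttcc
The *Pgam2* window holds 5 E-boxes and the *Pgam1* window 0. The *Eno3* window and the *Eno1* window shown hold 2 each, and the other 2 windows of *Eno1* hold 0. Elsewhere, the window of the muscle isoform *Hk2* holds 0 and that of *Fbp2* holds 5. A window of *Pfkfb2* and 1 of *Gpd2*, which were not DEGs, hold 4 each. Whether the number of E-boxes goes with the fold change was not tested. The window of *Ldha* (chr7:46845554-46845853, plus strand) is shown because it holds the most matches to ACGTG of these genes. There, capitals mark that motif, the core of the hypoxia response element, or its reverse complement CACGT.
Ldha: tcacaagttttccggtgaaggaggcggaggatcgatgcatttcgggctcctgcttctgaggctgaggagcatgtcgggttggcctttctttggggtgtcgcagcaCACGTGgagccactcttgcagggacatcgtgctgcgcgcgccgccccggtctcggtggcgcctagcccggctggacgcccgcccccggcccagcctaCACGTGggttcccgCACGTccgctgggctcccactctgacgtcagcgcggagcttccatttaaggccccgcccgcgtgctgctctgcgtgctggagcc
It holds 5 matches, 4 of which come from CACGTG, a palindrome that contains the core on both strands and is also an E-box.

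Across the promoters of these genes, the same motifs were counted as a description. A window was found for 30 of the 32 genes, all but *Slc2a3* and *Slc2a4*, and several starts gave 48 windows. ACGTG was present in 39.6% of these windows and in 19.6% of all 32851 windows, with 7 of 17 windows of muscle isoforms and 8 of 21 windows of other isoforms holding it. An E-box was present in 68.8% of the windows and in 72.3% of all windows, with 15 of 17 for muscle isoforms and 13 of 21 for other isoforms. The core of the MEF2 site (CTA and TAG, 4 bases apart) was present in 2.08% and 3.69%, and CACGTG in 10.4% and 7.15%. Windows of 1 gene can overlap, so these shares do not rest on independent windows.

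The genes of the last steps did not reach the fold threshold. *Pkm*, which makes pyruvate and the second ATP, was at 904 to 929 CPM in WT and 1116 to 1281 CPM in KO, with a log2 fold change of 0.40 (adjusted p = 0.000696). Counts per gene do not separate its M1 and M2 splice forms, and 15.3% of its exon bases lie within an exon of another gene on the same strand. *Ldha*, the muscle subunit of lactate dehydrogenase, was at 988, 985 and 978 CPM in WT and at 1134, 1378 and 1306 CPM in KO (log2 fold change 0.37, adjusted p = 0.00272). *Ldhb*, the heart subunit, was at 60.2, 61.7 and 63.5 CPM in WT and at 74.4, 88.6 and 87.8 CPM in KO (log2 fold change 0.44, adjusted p = 0.000482). Both subunits were higher in every KO sample than in any WT sample. *Gpd2*, the mitochondrial arm of the glycerol-3-phosphate shuttle, was at 16.1 to 16.3 CPM in WT and 18.8 to 22.1 CPM in KO (log2 fold change 0.33, adjusted p = 0.00289). *Pck2*, the mitochondrial phosphoenolpyruvate carboxykinase, was at 32.3 to 34.0 CPM in WT and 30.4 to 31.5 CPM in KO, and its log2 fold change of -0.09 did not pass the test (adjusted p = 0.126).

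Muscle isoforms were next set against the other isoforms within each sample, which does not depend on the scaling between samples. The log2 ratio of RPKM was taken for 15 pairs. In 13 of 15 pairs the ratio was higher in every KO sample than in every WT sample. For single genes, values did not overlap in either direction for 55.9% of all genes tested, and the share over all pairs of genes was not computed. Pairs of the same step share their muscle isoform, so the 15 pairs are not independent. With 3 samples against 3, the exact two-sided permutation test cannot give a p under 0.1, and each of these 13 pairs reached it (adjusted over the 15 pairs, p = 0.115), so no pair can pass a threshold of 0.05 by this test.

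The largest shift was that of *Aldoa* over *Aldoc*. Its log2 ratio was 7.17, 6.55 and 6.87 in WT and 8.75, 9.10 and 9.09 in KO, a difference of 2.12 (SE 0.21). *Slc2a4* over *Slc2a1* had log2 ratios of -1.26, -1.61 and -1.34 in WT and of -0.03, 0.39 and 0.42 in KO, a difference of 1.66 (SE 0.18). Per merged exon length, GLUT4 mRNA was thus below GLUT1 mRNA in all WT samples and above it in 2 of 3 KO samples, and with principal transcript lengths *Slc2a4* held 53.3% to 60.5% of the transporter sum in the KO samples, above the others in all 3. *Pgam2* over *Pgam1* differed by 1.55 (SE 0.16), and *Eno3* over *Eno1* by 1.45 (SE 0.17). *Pfkm* over *Pfkl* and over *Pfkp* differed by 1.07 and 1.02, and *Eno3* over *Eno2* by 1.04. Smaller differences of 0.62 to 0.70 were seen for *Pfkfb1* over the other PFKFB genes and of 0.48 and 0.45 for *Hk2* over *Hk1* and *Hkdc1*.

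A pair of ratios overlapped between the genotypes. *Ldha* over *Ldhb* was 2.96, 2.92 and 2.87 in WT and 2.85, 2.88 and 2.82 in KO, a difference of -0.06 (SE 0.033, exact permutation p = 0.2). *Fbp2* over *Fbp1* was 3.41, 3.54 and 3.73 in WT and 2.94, 3.63 and 3.76 in KO, a difference of -0.12 (SE 0.27, exact permutation p = 0.9), and it was 0.13 without KO replicate 1.

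**Figure D3:**
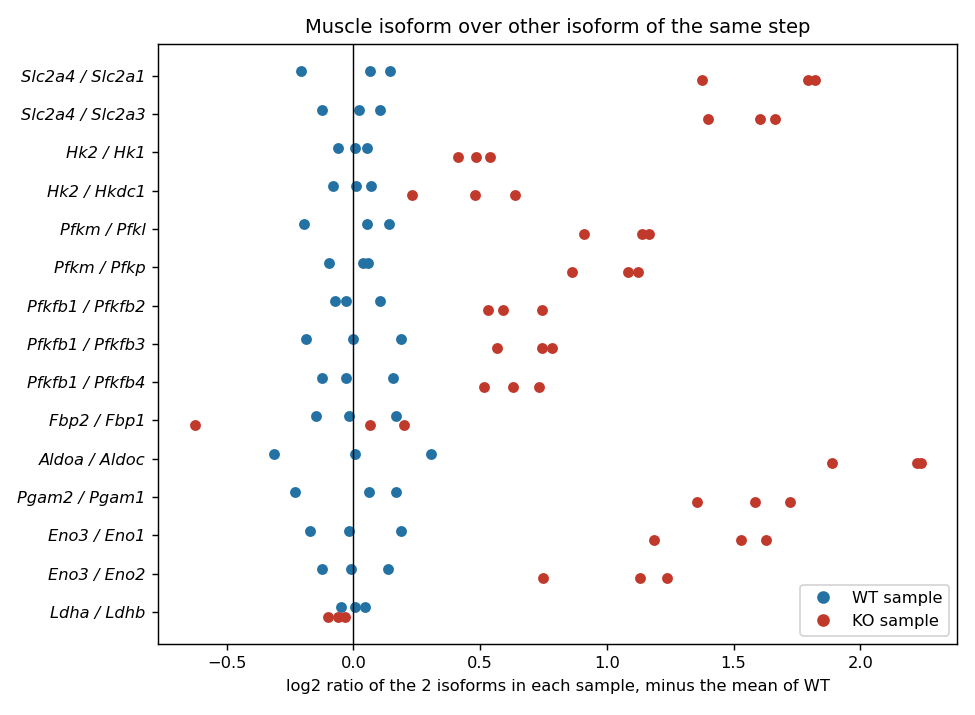
Log2 ratio of the muscle isoform to another isoform of the same step in each sample, minus the WT mean of that pair (WT blue, KO red, 3 samples each). Red points lie right of all blue points of their row for 13 of 15 pairs, with differences of the means from 0.45 for Hk2 over Hkdc1 to 2.12 for Aldoa over Aldoc, and overlap for Fbp2 over Fbp1 and for Ldha over Ldhb.

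Summed over the isoforms, most steps were higher in KO muscle, by unequal amounts. The summed RPKM of phosphoglycerate mutase was 335, 315 and 333 in WT and 659, 756 and 722 in KO, which is 2.17-fold. Enolase was at 383 ± 13.7 RPKM in WT and 785 ± 89.4 RPKM in KO (2.05-fold), and aldolase at 418 ± 8.50 and 767 ± 86.5 RPKM (1.84-fold, SD, n = 3). In each of these steps the muscle isoform held most of the sum in both genotypes. Phosphofructokinase 1 was at 78.9 ± 1.38 RPKM in WT and 129 ± 12.5 RPKM in KO (1.63-fold), and lactate dehydrogenase at 336 ± 0.636 and 438 ± 42.9 RPKM (1.30-fold, SD, n = 3). The 2 steps of entry differed less, with 33.4 ± 2.63 and 41.2 ± 3.46 RPKM for glucose transport (1.24-fold) and 20.2 ± 1.51 and 21.9 ± 0.882 RPKM for hexokinase (1.08-fold, SD, n = 3). Hexokinase and phosphoglycerate kinase overlapped between the genotypes (exact permutation p = 0.2 for each), and bisphosphoglycerate mutase and phosphoenolpyruvate carboxykinase were lower in every KO sample. The other 13 steps were higher in every KO sample, each at the smallest exact permutation p of 0.1. Among all genes tested, 55.9% did not overlap between the genotypes in either direction.

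**Figure D4:**
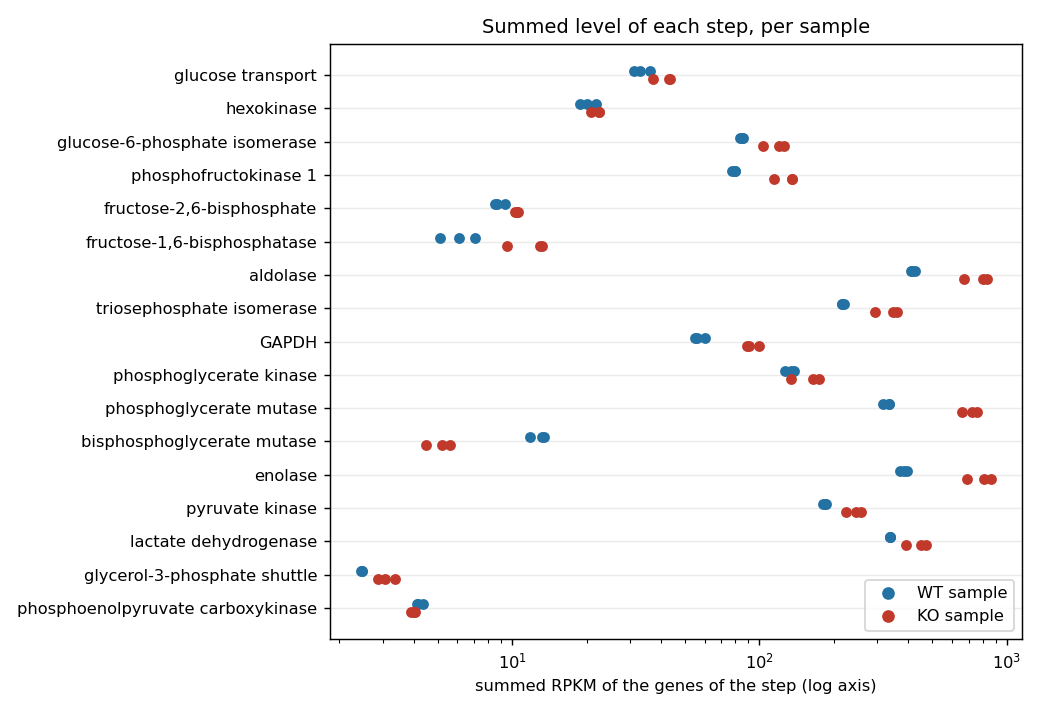
Summed RPKM of all genes of each step on a log axis, 1 point per sample (3 WT blue, 3 KO red). Points of the genotypes overlap for hexokinase and phosphoglycerate kinase, red lies left of blue for bisphosphoglycerate mutase (12.8 and 5.12 on average) and phosphoenolpyruvate carboxykinase (4.22 and 3.98), and lies right of it for the other 13 steps.

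Over the 9 steps with a muscle isoform, the muscle isoforms summed to 1401, 1313 and 1358 RPKM in WT. In KO they summed to 2356, 2905 and 2764 RPKM. This sum follows the class of the genes and does not measure RNA of muscle cells alone. The other isoforms of these steps summed to 239, 271 and 255 RPKM in WT and to 240.3, 242 and 242 RPKM in KO. The first sum did not overlap between the genotypes, and the second did (exact permutation p = 0.4), with WT replicate 2 as its highest sample. The log2 ratio of both sums was 2.41 ± 0.14 in WT and 3.46 ± 0.15 in KO (SD, n = 3). By level per merged exon length, *Aldoa* came first in WT at 414 ± 9.02 RPKM, followed by *Ldha* at 297 ± 1.59, *Eno3* at 280.2 ± 19.1 and *Pgam2* at 279 ± 15.2 RPKM (SD, n = 3), of which the last 3 did not differ beyond the spread of *Eno3*. In KO the order was *Aldoa* (765 ± 86.5 RPKM), *Eno3* (692 ± 91.7), *Pgam2* (673 ± 51.5) and *Ldha* (384 ± 37.9). There, the mean of *Eno3* lay within the SD of *Aldoa* and within that of *Pgam2*. The order depends on the length used. With principal transcript lengths, *Aldoa* stayed first (797 RPKM in WT and 1475 RPKM in KO), but *Pkm* and *Tpi1* (377 and 372 RPKM) came before *Eno3* and *Pgam2* (334 and 279 RPKM) in WT, and *Ldha* (721 RPKM) before *Pgam2* (673 RPKM) in KO.

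Genes around the path were taken from 5 further lists of 65 genes, 61 of which were tested. Of these, 18 were DEGs higher in KO and 2 were DEGs lower, where 8.31% and 8.39% of all genes tested were. By adjusted p alone, 37 were higher and 10 lower, beside 21.9% and 23.1% of all genes tested. The same shares of all genes stand beside the counts of each list below. The genes that decide the fate of pyruvate and of cytosolic NADH held most of the DEGs. There, 13 of 18 were DEGs higher, and the median log2 fold change was 0.68. In this list, 0 were DEGs lower by edgeR, DESeq2 or limma-voom, and 1 was lower by adjusted or unadjusted p alone in edgeR (*Gpt2*). *Gpd1*, the cytosolic partner of *Gpd2* in the glycerol-3-phosphate shuttle, was at 18.0, 11.0 and 21.7 CPM in WT and at 115, 131 and 130.7 CPM in KO (log2 fold change 2.89, SE 0.19, adjusted p = 2.71e-06). *Pcx*, which carboxylates pyruvate, had a log2 fold change of 1.32 and *Slc16a3*, the MCT4 exporter of lactate, of 1.20. *Slc25a12*, a carrier of the malate-aspartate shuttle, was at 67.3 to 69.3 CPM in WT and 113 to 150.4 CPM in KO (adjusted p = 2.4e-05). Every KO sample lay above every WT sample for each of these 4 genes. *Slc16a1*, the MCT1 carrier of lactate, had overlapping groups (log2 fold change -0.11, adjusted p = 0.143).

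Further isoforms and relatives of these genes were read as a list of 16, of which *Slc2a2*, *Pgk2*, *Pklr* and *Ldhc* did not pass the filter. Of the 12 tested, 3 were DEGs higher, among them *Ldhd* (D-lactate dehydrogenase, log2 fold change 1.25) and *Hk3* (the hexokinase of white blood cells, 0.74), and *Gapdhs* (the testis form, -0.79) was a DEG lower. *Ldhd* was scarce, at 0.496 to 0.708 CPM in WT and 1.11 to 1.71 CPM in KO. *Hk3* moved beside macrophage markers, 5 of 8 of which were DEGs higher in KO and which summed to 234 to 246 CPM in WT and 386 to 419 CPM in KO, and their part was not tested. *Eno1b*, a near-identical copy of *Eno1*, overlapped between the groups (log2 fold change -0.17, adjusted p = 0.457).

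The pentose phosphate pathway, which draws glucose-6-phosphate off for NADPH and ribose, held no gene that was higher in KO by the test. Of its 7 genes, 0 were DEGs higher by edgeR, DESeq2 or limma-voom. In edgeR, 0 were higher and 4 lower at an unadjusted p under 0.05, and 3 were lower by adjusted p alone. The entry enzyme *G6pdx* was a DEG lower (log2 fold change -0.68, adjusted p = 9.73e-05). It was at 60.8, 77.9 and 69.0 CPM in WT and at 44.9, 42.7 and 42.0 CPM in KO. WT replicate 2, which had the largest epidermal sum, was its highest sample. The part of epidermis in the *G6pdx* values was not tested. Of 11 genes of the storage and traffic of GLUT4, 0 were DEGs by edgeR, DESeq2 or limma-voom. By adjusted and by unadjusted p alone in edgeR, 7 were higher, beside 21.9% of all genes tested by adjusted p. The median log2 fold change of these genes was 0.18. *Insr*, the insulin receptor (0.50), and *Tbc1d4*, the Rab regulator that holds GLUT4 inside (0.41), had the largest log2 fold changes of these.

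Of 13 regulators of glycolysis genes, 2 were DEGs higher in KO, beside 8.31% of all genes tested. By adjusted p alone, 9 were higher and 3 lower, beside 21.9% and 23.1% of all genes tested. The median log2 fold change was 0.30. *Mlxipl*, the glucose-sensing factor ChREBP, was at 1.44, 1.28 and 1.92 CPM in WT and at 8.002, 10.4 and 10.7 CPM in KO (log2 fold change 2.64, adjusted p = 1.53e-06). *Ppargc1a*, a coactivator of mitochondrial genes, had a log2 fold change of 1.02 (adjusted p = 1.78e-05). *Egln3*, a target and brake of the hypoxia factors (0.50), *Txnip*, an inhibitor of glucose uptake (0.45), and *Mlxip*, a relative of *Mlxipl* (0.36), had the next log2 fold changes in that direction and passed the adjusted p alone. *Hif1a* and *Myc* drive glycolysis genes in many proliferating or hypoxic cells. Both were lower by adjusted p alone (log2 fold changes -0.25 and -0.39, adjusted p = 0.0018 and 0.000245). WT replicate 2 was the highest sample for both, and the part of epidermis in their values was not tested. Fat cells express *Slc2a4*, *Gpd1*, *Pcx* and *Mlxipl* as well, and fat markers (*Adipoq*, *Plin1*, *Cidec* and 5 more) were DEGs higher in KO in 8 of 8 cases, with sums of 115 to 147 CPM in WT and 361 to 422 CPM in KO. Their part in these 4 genes was not tested.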

How the data were processed

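Fetal leg muscle, 3 WT and 3 *SYISL* KO samples, was sequenced with 150 bp paired-end reads. The authors trimmed reads with Trim Galore 0.6.6, mapped them to mm10 with HISAT2 2.2.1 and deposited raw counts per gene from featureCounts 2.0.1. The annotation, strand setting and treatment of multiply mapped reads are not given in the sources used here, so reads of overlapping genes or near-identical copies (at least 95% identity over 150 bases, by blastn) may be shared. Gene symbols, exon lengths and coordinates were taken from GENCODE M21, in which 55227 gene IDs were found and 1035 were not.

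Counts were tested in R 4.3.3 with edgeR 4.0.16 (filterByExpr, TMM, quasi-likelihood F-test on genotype alone), checked on simulated data. The common biological coefficient of variation was 7.68%. Same-numbered samples of both genotypes deviated from their group means with correlations of -0.20, -0.13 and 0.05, so they were not paired. Ratios, shares and sums were tested with exact permutation tests over samples. The alternatives were RLE or upper-quartile factors or library size alone, DESeq2 1.42.0, limma-voom (limma 3.58.1), other filters, a replicate block, other thresholds, other gene lengths and leaving out each sample.

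The 32 genes, the further lists and the isoform classes were chosen with earlier results of these data known. All 32 genes were named, and of each further list up to 4 DEGs with the largest changes and genes close in role to them. *Gpt2*, *Slc16a1*, *Insr*, *Tbc1d4*, *Egln3*, *Txnip*, *Mlxip*, *Hif1a*, *Myc*, *Col2a1* and *Matn1* were named after their values were seen. Protein sequences were not used here, and the values of 2 genes of the lists are not reported here.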

Additional observations from a re-analysis of the deposited data

How the results depend on the processing

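Of 448 log2 fold changes of the 32 genes under the alternatives, 446 kept their direction and their side of the thresholds and 0 reversed. *Tpi1* fell under the fold threshold with library size only (0.55) and without KO replicate 2 (0.56), which left 1 of the single-gene steps called higher (1 to 2 over the samples left out). With no fold threshold, 4838 genes were higher and 5098 lower, among them 20 and 9 of the 32, 5 and 8 of the other isoforms, 6 single genes higher, and 37 higher and 10 lower of the further lists. With a fold change over 2, 774 genes were higher by edgeR, among them 4 of the 32, 3 muscle isoforms and 0 single genes. Lower at this threshold were *Aldoc* (log2 -1.25) and *Bpgm* (log2 -1.32), of which *Bpgm* is a single gene. Of the further lists, 8 were higher and 0 lower by edgeR. Same-numbered samples share only a number, and 1 of 6 samples correlated best with its own number. With a replicate block, 10 of the 32 genes were higher and 2 lower, as without it, beside 1744 and 1777 of all genes.

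Lengths moved some shares and sums. With no division by length, the share of the muscle isoform differed by 16.5 percentage points for *Pfkm*, 3.19 for *Pfkfb1*, 16.8 for *Pgam2* and 23.5 for *Eno3*. With principal transcript length, chosen after seeing the data, it differed by 14.9 for *Pfkm*, 6.23 for *Pfkfb1*, 0.406 for *Aldoa* and 21.7 for *Eno3*, and the log2 change of the sum was 0.59 for phosphofructokinase 1 and 0.82 for enolase. With library size only, the log2 change of the sum was 0.17 for fructose-2,6-bisphosphate and -0.15 for phosphoenolpyruvate carboxykinase. Leaving out samples, *Fbp2* over *Fbp1* ran from -0.28 to 0.13 and its share from -1.69 to 0.651 points, and both changed sign. With 3 samples per genotype, permutation tests cannot go below p = 0.1.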
